A study of Mus musculus with 2 samples.

Results

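Carbonic anhydrases are zinc enzymes that convert carbon dioxide and water to bicarbonate and a proton, and back again. The family was followed here in the mouse uterus through 9 genes, Car2, Car4, Car5b, Car8, Car9, Car11, Car12, Car13 and Car14, taken by their symbols from a table of 14678 genes. All 9 had tags in at least 1 library. Uteri at gestation day 2.5 came from double transgenic females of the genotype VEGFtetO/tetO/beta-AKtg/wt, in which a tetR-Krab repressor under the beta-actin promoter can bind tet operators placed in the VEGF promoter. Dox+ females ate chow with doxycycline and kept VEGF expression. Dox− females had doxycycline removed at 3 to 4 weeks of age, and VEGF was repressed in them. Both groups carried both transgenes, were littermates, were mated with VEGFtetO/tetO males, and were analysed at 9 to 10 weeks. VEGF repression and the absence of doxycycline therefore cannot be told apart. RNA of 3 uteri was pooled per condition, and 1 library was sequenced from each pool.

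Digital gene expression profiling counts short tags, and the copies of a gene are the tags assigned to it. The libraries held 5985925 clean tags in Dox+ and 5844314 in Dox−, of which 74.1% and 72.2% were counted on genes. Levels are given as copies and as TPM, here the tags of a gene per 1000000 clean tags. Intervals are exact Clopper-Pearson 95% intervals and cover counting error only. With 1 library per condition there is no replicate error, no p-value is given, and each ratio compares these libraries, not the conditions. A gene was counted as higher or lower when it had at least 200 copies over both libraries and a fold change of at least 1.5. Vegfa, the repressed gene, had 247 copies in Dox+ and 125 in Dox−, and was 1.93-fold lower in Dox− (95% interval 1.55 to 2.41).

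The members differ in where they work. Car2 and Car13 act in the cytosol, and Car2 is among the fastest enzymes known. Car5b acts in mitochondria. Car9, Car12 and Car14 cross the plasma membrane and Car4 is tethered to it by a lipid anchor, all with the catalytic domain facing outward. Car8 and Car11 belong to the carbonic anhydrase related proteins, which lack the enzyme activity. In the uterus, the epithelium uses carbonic anhydrases to set the bicarbonate and pH of the luminal fluid, and the activity of the enzyme in the endometrium is known to respond to ovarian steroids. Car9 and Car12 are known elsewhere as genes that hypoxia can induce.

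The study also measured Car2 by qPCR, and the primers show which part of the transcript that assay read. They are printed 5′ to 3′, and capitals mark the bases of the forward primer that lie in exon 2.
Car2 forward: caagcacaacgGACCAGAGAA
Car2 reverse: ggcagttgctgtgtcaatgtc
On NCBIM37, the assembly also called mm9, Car2 lies on the plus strand of chromosome 3 from 14886426 to 14900769 with 7 exons. The forward primer begins at 14886776 in exon 1 and ends at 14887843 in exon 2, with 11 bases before and 10 bases after the junction. The reverse primer lies in exon 2 from 14887893 to 14887913. Both fall in the coding sequence, and the product is 91 bases long across the first intron of 1047 bases. The qPCR values were not analysed here.

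Car2 was the member with the most tags in both libraries. It had 365 copies in Dox+ and 1925 in Dox−, or 61.0 (54.9 to 67.6) and 329 (315 to 344) TPM. The intervals were far apart, and Car2 was 5.40-fold higher in Dox− (4.83 to 6.06). Its level moved from rank 2254 of all genes in Dox+ to rank 305 in Dox−. Among the 6547 genes with at least 200 copies over both libraries, its ratio was the 37th highest. In bulk tissue, more cells that use a gene and more RNA of it per cell cannot be told apart.

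Car12 showed a difference of like size at a lower level. It had 75 copies in Dox+ and 343 in Dox−, or 12.5 (9.86 to 15.7) and 58.7 (52.6 to 65.2) TPM. Car12 was 4.68-fold higher in Dox− (3.64 to 6.10), and this interval overlaps that of Car2, so the counts do not order the ratios of both genes. Car12 (chromosome 9, 66561493 to 66614652, plus strand, 11 exons) is on another chromosome than Car2. It reached 200 copies over both libraries only through its level in Dox−.

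Car5b went the other way. The gene (chromosome X, 160414754 to 160465929, minus strand) had 143 copies in Dox+ and 82 in Dox−, or 23.9 (20.1 to 28.1) and 14.0 (11.2 to 17.4) TPM. It was 1.70-fold lower in Dox− (1.29 to 2.26). The interval reaches below the threshold of 1.5. Car5b has 225 copies over both libraries, near the minimum of 200. It reached this minimum only through its level in Dox+.

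These 3 genes were the members with at least 200 copies, and 2 of them counted as higher and 1 as lower in Dox−. Of all 6547 such genes, 29.9% counted as higher or lower, 15.2% as higher and 14.7% as lower. At a fold change of at least 2, Car2 and Car12 remained, where 10.2% of all genes passed, 4.61% as higher and 5.62% as lower, and 0 members were lower. The background share is large, so passing the threshold of 1.5 is common among these genes. How far pools of uteri differ without any treatment cannot be estimated from these libraries.

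**Figure D1:**
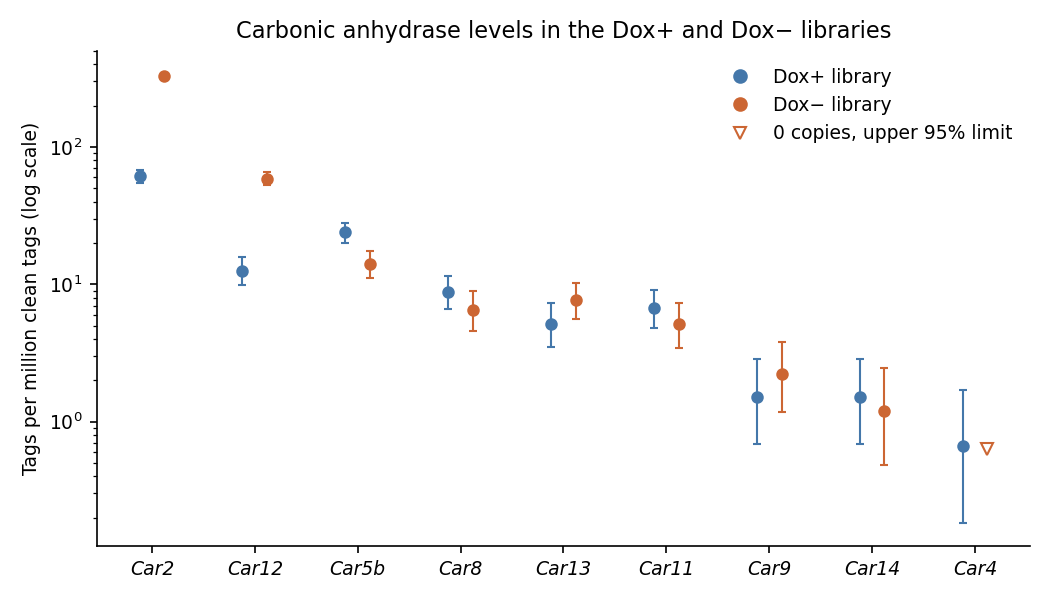
Level of each carbonic anhydrase member in the Dox+ (blue) and Dox− (orange) libraries, as TPM on a log axis, with exact 95% intervals for counting error and an open triangle at the upper limit of Car4 in Dox−. Car2 and Car12 stand higher in Dox−, with 329 against 61.0 and 58.7 against 12.5 TPM, Car5b stands lower, and the intervals of the other members overlap between the libraries.

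The other cytosolic member, Car13, had 31 copies in Dox+ and 45 in Dox−, or 5.18 and 7.70 TPM. Its ratio of 1.49 had an interval from 0.920 to 2.43. With 31 copies in Dox+, at least 49 copies in Dox− would have been needed for an interval above 1, so a smaller difference was not detectable at this depth.

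The related proteins without activity stood at similar low levels. Car8, which is known to bind the inositol trisphosphate receptor, had 53 copies in Dox+ and 38 in Dox−. Car11 had 40 and 30 copies. The ratios were 0.734 (0.471 to 1.14) for Car8 and 0.768 (0.462 to 1.26) for Car11, and both intervals hold 1. Together the pair had 93 and 68 copies, a ratio of 0.749 (0.540 to 1.03).

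The remaining membrane-bound members were near the limit of counting. Car9 had 9 copies in Dox+ and 13 in Dox−, a ratio of 1.48 (0.585 to 3.92). Car14 had 9 and 7 copies, a ratio of 0.797 (0.252 to 2.40). For either gene, 21 copies in Dox−, a 2.39-fold difference, would have been the smallest higher count with an interval above 1. Car4 had 4 copies in Dox+ and 0 in Dox−, where the exact upper limit is 0.631 TPM. The interval of the ratio of Car4 reached up to 1.55-fold higher in Dox−. For Car4, 13 copies in Dox−, a 3.33-fold difference, would have been the smallest higher count with an interval above 1. No count in Dox− could have given an interval below 1, so a lower level was not detectable at this depth. Across the 9 members, the interval excluded 1 for Car2, Car12 and Car5b, and the interval of the ratio excluded 1 for 47.6% of all genes in the table.

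**Figure D2:**
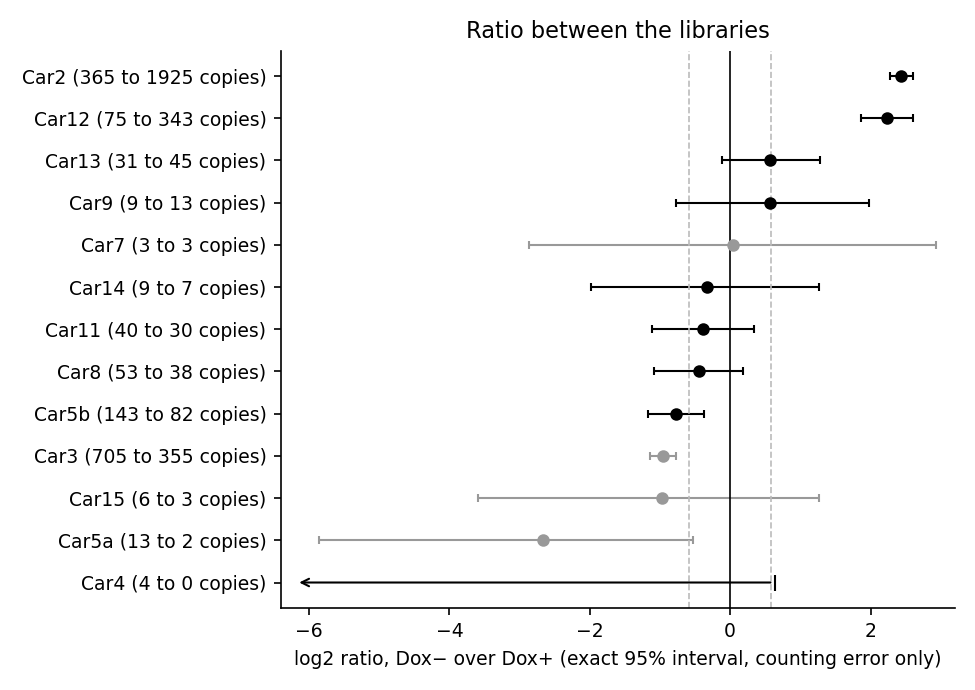
Log2 ratio of Dox− over Dox+ for the 9 members (black) and the other carbonic anhydrase genes of the table (grey), with exact 95% intervals and copy numbers beside each name. Dashed lines mark a fold change of 1.5, and the arrow of Car4 shows an interval without a lower end. Car2 and Car12 lie at 2.43 and 2.23, and Car5b and Car3 lie to the left of 0.

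The order of the members changed between the libraries. In Dox+ it ran Car2, Car5b, Car12, Car8, Car11, Car13, then Car9 and Car14 at the same count, then Car4. Car2 and Car5b differed beyond their intervals, and so did Car5b and Car12, while Car12 and Car8, Car8 and Car11, and Car11 and Car13 did not. Car13 and Car9 differed beyond their intervals again. In Dox− the order ran Car2, Car12, Car5b, Car13, Car8, Car11, Car9, Car14 and Car4. The first 3 differed from each other and from Car13 beyond their intervals, and from Car13 downward no neighbours did. Car12 thus stood below Car5b in Dox+ and above it in Dox−.

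Tag counting of this kind gives a transcript the same chance whatever its length, but the sample descriptions also mention fragmentation, so levels were set per kb of transcript as well. Per kb, Car2 had 34.1 TPM in Dox+ and 184 in Dox−, and Car12 had 3.37 and 15.8. Car5b had 6.95 and 4.08 per kb. Car2 stayed first in both libraries and Car12 second in Dox−, while in Dox+ Car11, with 4.22 per kb, stood above Car12.

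For Car12, Car5b and Car9, RefSeq windows on GRCm38.p6 gave the 250 bases before the start of the gene, a build other than that of the counts. The first pair are members past the threshold, and Car9 is the best known target of hypoxia in the family. The sequences run 5′ to 3′ on the strand of the gene, and capitals mark ACGTG or GCGTG on either strand, the core letters that hypoxia-inducible factors bind.
Car12 chr9:66713436-66713685 plus strand: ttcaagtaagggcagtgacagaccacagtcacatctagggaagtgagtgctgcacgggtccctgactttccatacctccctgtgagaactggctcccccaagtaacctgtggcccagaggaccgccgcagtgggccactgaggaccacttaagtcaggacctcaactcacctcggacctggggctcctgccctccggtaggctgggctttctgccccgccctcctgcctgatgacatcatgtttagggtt
Car5b chrX:164028011-164028260 minus strand: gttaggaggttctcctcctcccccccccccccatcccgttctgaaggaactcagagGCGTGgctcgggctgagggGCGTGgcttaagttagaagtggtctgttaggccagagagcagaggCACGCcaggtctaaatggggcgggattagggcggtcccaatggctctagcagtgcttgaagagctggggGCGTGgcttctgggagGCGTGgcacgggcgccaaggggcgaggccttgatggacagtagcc
Car9 chr4:43506776-43507025 plus strand: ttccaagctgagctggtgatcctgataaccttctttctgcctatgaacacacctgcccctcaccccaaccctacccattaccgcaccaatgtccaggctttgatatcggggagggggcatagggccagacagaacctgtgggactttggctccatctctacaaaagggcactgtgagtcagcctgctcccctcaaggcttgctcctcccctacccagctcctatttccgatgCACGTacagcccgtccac
Car9 held 1 match to ACGTG, from 18 to 14 bases before the start and on the opposite strand. Car5b held 5 matches to GCGTG, and the window of Car12 held neither set of letters. Of 32851 windows, 16.6% held ACGTG and 28.2% held GCGTG. Of the 6 members with a window, Car14 also held ACGTG and Car11 held GCGTG in 1 of its windows. Matches to ACGTG and GCGTG did not overlap in these windows.

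The rest of the family was measured through Car3, Car5a, Car7 and Car15, so that 13 of 16 listed carbonic anhydrase genes were in the table. Car3, a cytosolic enzyme of low activity abundant in skeletal muscle and fat, had 705 copies in Dox+ and 355 in Dox−. It was 1.94-fold lower in Dox− (1.70 to 2.21), and was the single gene of the 4 with at least 200 copies. Car5a, the second mitochondrial enzyme, had 13 and 2 copies, a ratio of 0.158 (0.0173 to 0.696). Car15 had 6 and 3 copies and Car7 had 3 in each library.

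The 13 genes together had 1456 copies in Dox+ and 2846 in Dox−, or 243 and 487 TPM, and the interval of the ratio of the sums ran from 1.88 to 2.13. In Dox+, Car3 made up 48.4% of these copies (45.8% to 51.0%) and Car2 25.1% (22.9% to 27.4%). In Dox−, Car2 made up 67.6% (65.9% to 69.4%) and Car3 12.5% (11.3% to 13.7%). The leading carbonic anhydrase of the family thus differed between the libraries, Car3 in Dox+ and Car2 in Dox−.

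By place in the cell, the 5 membrane-bound genes had 103 and 366 copies, a 3.64-fold higher sum in Dox− (2.92 to 4.57). Nearly all of this was Car12, since the other 4 had 28 and 23 copies. The 4 cytosolic genes had 1104 and 2328 copies, 2.16-fold higher (2.01 to 2.32), a sum in which Car2 was higher and Car3 lower. The mitochondrial pair had 156 and 84 copies, 1.81-fold lower in Dox− (1.38 to 2.39). These groupings were made after the values were seen.

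**Figure D3:**
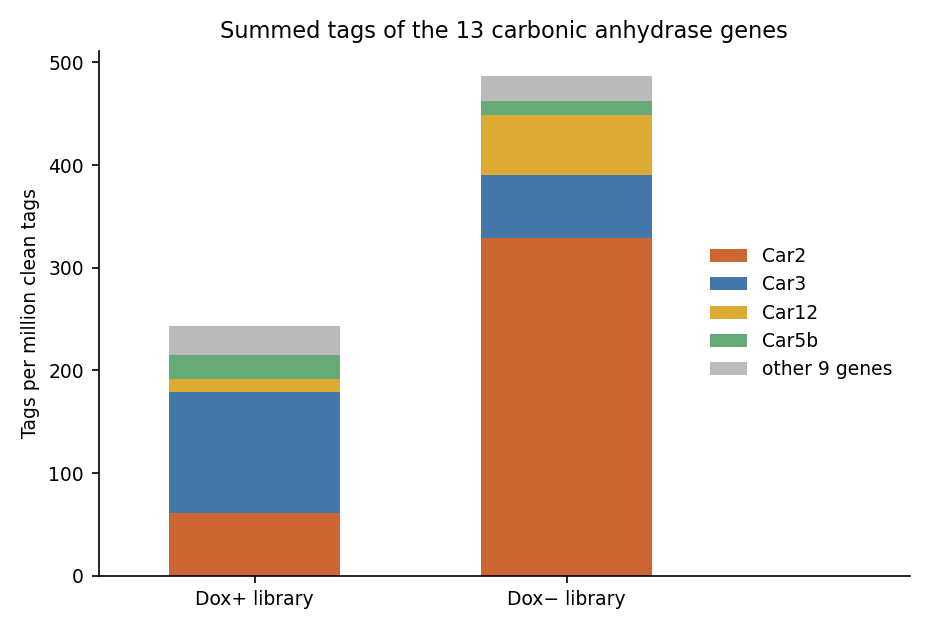
Stacked TPM of the 13 carbonic anhydrase genes in the Dox+ and Dox− libraries, with the 4 genes of most copies in colour and the other 9 in grey. The sum goes from 243 to 487 TPM, and Car2 goes from 25.1% to 67.6% of it while Car3 goes from 48.4% to 12.5%.

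Car13, Car1, Car3 and Car2 lie next to each other in 259 kb of chromosome 3, and Car3 ends 14.1 kb before Car2 begins on the same strand. The neighbours Car3 and Car2 differed between the libraries in opposite directions, and the interval of Car13, at the far end, held 1. Car14 lies on the same chromosome from 95701691 to 95708614. Car1 was not analysed here.

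**Figure D4:**
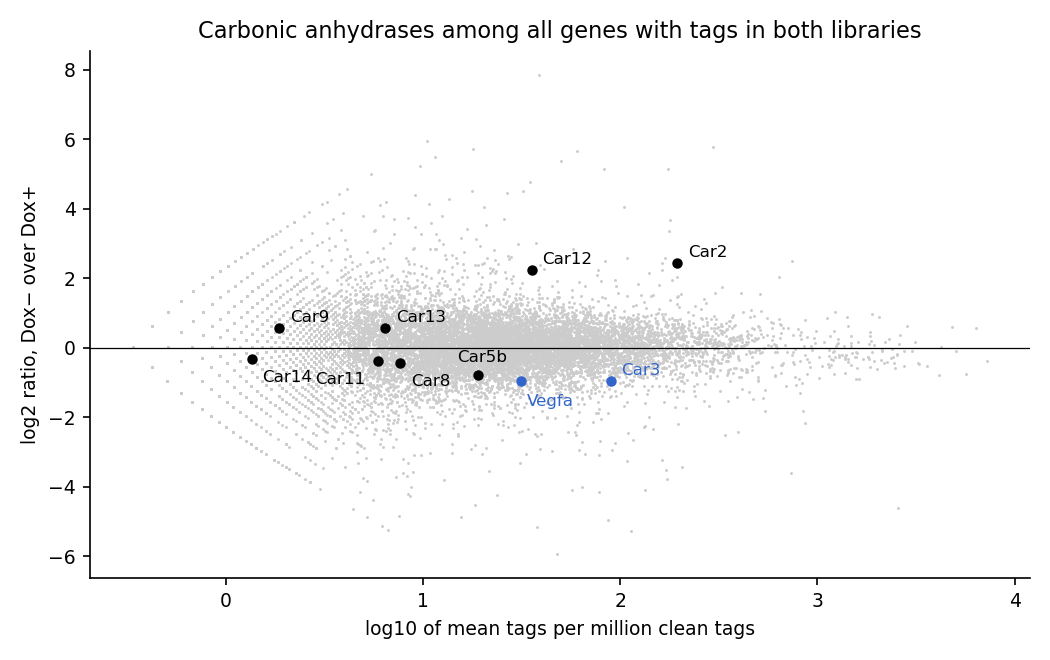
Log2 ratio of Dox− over Dox+ against log10 of the mean TPM, for each gene with tags in both libraries (grey), with the members in black and Car3 and Vegfa in blue. Car2 and Car12 lie above most genes of their level, and Car8, Car9, Car11, Car13 and Car14 lie inside the spread of genes with few tags.

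The genes nearest to Car2 by their log2 levels in the 2 libraries were A2m, Dio2 and Lrig1, at distances of 0.30, 0.34 and 0.35. A2m, a protease inhibitor of plasma, had 342 and 1579 copies. Dio2, which activates thyroid hormone, had 457 and 1816 copies. Lrig1, a membrane protein that restrains ERBB receptors, had 450 and 1698 copies. Each was between 3.86-fold and 4.73-fold higher in Dox−.

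Carbonic anhydrases supply bicarbonate and protons to membrane transporters, and 27 of 37 listed transporter genes and partners were in the table. Of all genes with at least 200 copies, 15.2% were higher and 14.7% lower in Dox−, with a median log2 ratio of 0.03. Of the 5 listed genes with as many copies, 1 was higher and 0 lower, with a median of 0.25. The higher gene was Slc16a1, a carrier of lactate and protons, at 1.52-fold (1.17 to 1.99). With TMM scaling its ratio was 1.49, and 0 genes of the list were higher. Slc4a2, which exchanges chloride for bicarbonate, had 295 and 353 copies. The scaffolds Slc9a3r2 and Slc9a3r1 had 427 and 318 copies, and 283 and 246 copies, and neither reached the threshold.

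Among transporters with fewer tags, 4 were picked after their values were seen. Cftr, the chloride and bicarbonate channel of epithelia, had 17 copies in Dox+ and 131 in Dox−, 7.89-fold higher (4.75 to 14.0). Slc26a9, a chloride transporter, had 0 and 13 copies. Its ratio was 4.44 with the 0 set to 3 copies, and the exact interval began at 3.12-fold higher. Slc16a3, which exports lactate with protons, was 2.56-fold higher (1.85 to 3.58). Atp12a, a proton pump, had 20 and 0 copies. It was 6.51-fold lower with the 0 set to 3 copies, and the exact interval began at 4.82-fold lower. From 20 copies over both libraries, 7 of 21 listed genes were higher and 2 lower, where 19.7% and 18.7% of all genes were.

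Of genes known, like Car9 and Car12, to be inducible by hypoxia, the list had 18 of 26 genes with at least 200 copies. Of these, 7 were higher and 3 lower in Dox−, where 15.2% and 14.7% of all genes were, with a median log2 ratio of 0.23. Ldha and Pgk1, enzymes of glycolysis, were 1.86-fold and 1.63-fold higher. Egln3, an oxygen sensor, had 35 and 179 copies and was 5.24-fold higher (3.63 to 7.76). Like Car12, Egln3 reached 200 copies over both libraries only through its level in Dox−. Bhlhe40, a transcription factor, was 2.47-fold higher. In the opposite direction, Slc2a3, a glucose transporter, had 604 and 104 copies and was 5.67-fold lower, and Pfkfb3, a regulator of glycolysis, was 2.39-fold lower. Aldoa had 1648 and 1891 copies, a 1.18-fold difference. Vegfa is on this list and is the gene repressed by design.

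Markers of several cell types also differed between the libraries. All 16 epithelial markers had tags in both libraries, and 14 had at least 200 copies, with 6 higher and 2 lower and a median log2 ratio of 0.48. Of all genes with 200 copies, 15.2% were higher and 14.7% lower, which is the background for each marker list. Their summed level was 1478 TPM in Dox+ and 2157 in Dox−, 1.46-fold higher. Among those with the most copies, Krt19 and Krt8 had 1554 and 2046 copies, and 1330 and 1481 copies, and Cldn7 was 2.64-fold higher. Chosen after their values were seen, Elf3 was 6.00-fold and Prom1 5.60-fold higher, as much as Car2 and Car12, and Cldn3 was 2.93-fold lower. Set against the epithelial sum, Car2 was 3.70-fold and Car12 3.21-fold higher in Dox−, but not against Elf3 or Prom1.

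Red cells hold much Car2, and 7 of 14 erythroid genes were in the table, none with 200 copies, and the other 7 were not analysed here. Their sum was 81 copies, or 13.5 TPM, in Dox+ and 217 copies, or 37.1 TPM, in Dox−. The part of red cells in the level of Car2 was not tested. Hba-a1 had 26 and 114 copies, Hba-a2 19 and 82, and Alas2 21 and 9. Hba-a1 was 4.49-fold (2.91 to 7.17) and Hba-a2 4.42-fold (2.66 to 7.71) higher, and Alas2 was 2.28-fold lower. Set against the erythroid sum, Car2 was 1.97-fold and Car12 1.71-fold higher in Dox−. Against the 2 globin genes alone, the intervals of Car2 and Car12 overlapped theirs. The globin genes are near-identical, so their counts are uncertain. Spna1 and Hbb-b2 were at 0 in Dox+ and Spnb1 was at 0 in Dox−. Leukocyte markers summed to 147 and 217 TPM over 16 genes, all with tags in both libraries. Of these, Coro1a had 234 and 263 copies, Csf1r 186 and 181, and Lyz2 127 and 169, and 0 of the 3 with 200 copies reached the threshold. From 20 copies, 6 of 13 were higher and 1 lower, where 19.7% and 18.7% of all genes were. Chosen after their values were seen, S100a9 was 8.08-fold, S100a8 4.18-fold, Ptprc 2.72-fold and Itgam 2.21-fold higher. The 1 lower marker was Ncr1, at 2.01-fold lower (1.11 to 3.74).

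Smooth muscle and endothelial markers were more often lower than higher in Dox−. The 10 smooth muscle markers summed to 6678 and 4590 TPM, and 5 of the 9 with 200 copies were lower. Tagln, Actg2 and Myh11 were 1.26-fold, 1.43-fold and 1.42-fold lower. The 15 endothelial markers in the table summed to 682 and 346 TPM, and 5 of 8 were lower, with Sox17 3.32-fold and Cdh5 2.02-fold lower and Pecam1 at 243 and 253 copies. Sox17 is known from uterine epithelium as well. The 11 adipocyte markers summed to 322 and 243 TPM. Of these, Adipoq was 1.97-fold lower, and Cfd and Fabp4 had 1081 and 875 copies, and 224 and 163 copies. Each of these genes had tags in both libraries. Of the 12 stromal markers, 1 was higher and 5 lower, with a median log2 ratio of -0.50. Their sum of 9350 and 10345 TPM was mostly Col1a1, with 23017 and 33696 copies, and Col3a1, with 18514 and 17098. Lum was 1.84-fold higher. Of the lower markers, chosen after their values were seen, Hand2 was 6.73-fold, Hoxa10 2.87-fold and Wt1 2.02-fold lower, and Hoxa11 had 2573 and 785 copies.

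Set against the endothelial sum, Car5b was 1.16-fold higher in Dox− in place of 1.70-fold lower. Sox17 alone held 1991 of the 4085 copies of the endothelial sum in Dox+, and 585 of 2025 in Dox−. Ratios against this sum therefore depend much on Sox17, and a sum without it was not computed. Against the smooth muscle sum Car5b was 1.17-fold lower and against the adipocyte sum 1.28-fold. Against the epithelial, stromal and leukocyte sums Car5b was 2.48-fold, 1.88-fold and 2.51-fold lower. The stromal sum is mostly Col1a1 and Col3a1, while the median log2 ratio of the stromal markers was -0.50. Ratios against the stromal sum therefore do not stand for the median stromal marker. Car3 was 1.46-fold lower against the adipocyte sum and 1.33-fold lower against the smooth muscle sum, and 1.02-fold higher against the endothelial sum. Against the epithelial, stromal and leukocyte sums it was 2.83-fold, 2.15-fold and 2.86-fold lower. Car2 and Car12 were higher against each of the 7 marker sums, from 1.71-fold for Car12 against the erythroid sum to 10.6-fold for Car2 against the endothelial sum. This holds for the sums and not for each marker, since the intervals of Elf3, Prom1, Hba-a1 and Hba-a2 overlapped those of Car2 and Car12. The part of cell composition in the ratios of the members was not tested.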

How the data were processed

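Total RNA of 3 pooled uteri per condition was read as 1 tag library each. The deposited counts are copy numbers, which the authors obtained by discarding singleton, adaptor and poor quality tags, aligning the clean tags that were left to mouse reference mRNAs of mm9, and counting unambiguous tags per gene. The aligner is not given in the sources used here, and the submitters' processing notes name CASAVA. The deposited TPM is in effect a CPM, computed by the authors as copies per 1000000 clean tags and not divided by length, with 0.01 written at 0 copies. All 27998 TPM values above 0.01 equalled this within rounding, and the clean tags were recovered from them. The log2 ratios, ratios, P-values and FDR that the authors deposited hold their own comparison and were not used.

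Ratios were copies per clean tag in Dox− over Dox+, with exact Clopper-Pearson 95% intervals. For a ratio, a count of 0 was set to 3 copies beside the limit of the exact interval, and counts of 1 to 3 were kept as they are, in place of the planned floor. The calls rest on no test. Alternatives were other scalings, copy minimums, fold thresholds, an added copy, the Audic-Claverie test and an edgeR exact test with an assumed variation, both of which compare these libraries and not the conditions. The named genes were the members, Vegfa, the other carbonic anhydrases, the 3 listed genes with the most copies, genes of pathway lists past a fold change of 2, and the 3 genes nearest to Car2. A gene that this rule names is not reported here. The members, lists and tests were chosen with earlier results of these data known. Positions and transcript lengths came from GENCODE vM1 on NCBIM37, and promoter windows from RefSeq. The intervals were tested on simulated counts with Poisson error only. The intervals assume this counting error, so the simulation says nothing about differences between pools of uteri. Python 3.11.15, scipy 1.17.1, pandas 2.3.3, R 4.3.3, edgeR 4.0.16 and DESeq2 1.42.0 were used, the last pair for alternatives.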

Additional observations from a re-analysis of the deposited data

How the results depend on the processing

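Car2 and Car12 were counted as higher and Car5b as lower in Dox− with copy number minimums of 100, 20 and none, with TMM, median ratio or counted tag scaling, with 1 copy added, with an absolute log2 ratio above 0.5, and with the Audic-Claverie test. At a fold change of 2, 0 members were lower. The negative binomial exact test of edgeR was also run, at assumed coefficients of variation of 0.2 and 0.4. At both settings most of all the genes counted as higher or lower were lost, so losing a member there is common. In these tests Car5b was lost at 0.2, and Car2 and Car12 at 0.4, since the assumed variation is larger by construction. Scaling moved the log2 ratios by at most 0.04, and the ratio of each member stayed within its interval under each scaling. Per kb of transcript, 5 of 9 members kept their rank in Dox+ and 7 of 9 in Dox−. Of the 83 listed genes with at least 200 copies, 17 were higher and 26 lower in Dox−, where 15.2% and 14.7% of all genes were. At a fold change of 2 there were 8 higher and 14 lower, where 4.61% and 5.62% of all genes were. From 100 copies 26 listed genes were higher and 32 lower, and 1472 and 1384 of all genes. Shares were not computed at this minimum, so these counts cannot be set against a background. From 20 copies, a minimum added after seeing the data, 35 were higher and 37 lower, where 19.7% and 18.7% of all genes were. Slc16a1 was not counted as higher with TMM scaling. No paired analysis was possible because each condition has 1 library. Depth limits Car4, Car9 and Car14, which had under 20 copies in each library.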

Other observations

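Genes that move water and ions across the uterine lumen were followed beside the carbonic anhydrases, and 16 of 20 listed were in the table. Of all genes with at least 200 copies, 15.2% were higher and 14.7% lower in Dox−, with a median log2 ratio of 0.03. Of the 10 listed genes with as many copies, 2 were higher and 4 lower, with a median of 0.20. The lower genes were Fxyd4, a modulator of the sodium pump, with 1501 copies in Dox+ and 87 in Dox−, Aqp1, a water channel, with 974 and 320, Atp1b1, the beta subunit of the sodium pump, with 706 and 158, and Ano1, a chloride channel, with 597 and 108. Aqp5, a water channel of secretory epithelia, had 36 and 212 copies and was 6.03-fold higher (4.22 to 8.84). It reached 200 copies over both libraries only through its level in Dox−. Fxyd3, of the same family as Fxyd4, had 613 and 707 copies and was below the threshold.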
